A study of Mus musculus with 16 samples.

Results

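The vascular endothelial growth factor (VEGF) and angiopoietin systems were examined in mouse thyroid through 10 genes, chosen by name and matched by gene identifier among the 21640 genes of the count table. They were 4 VEGF family ligands (Vegfa, Vegfb, Vegfc and Pgf), 2 VEGF receptors (Kdr and Flt1), 2 angiopoietins (Angpt1 and Angpt2) and the receptors Tek and Tie1. All 10 had enough counts to be tested at each time point. The study asked what overnutrition does to the thyroid. Wild-type male C57Bl/6J mice were 8 weeks old when they began either a high-fat diet with sucrose water (HF+SD) or a chow control diet (CD), and thyroids were collected after 3 weeks or after 6 weeks, with 4 mice per diet at each time. The CD group of the later time holds more mice than the study's own description of those libraries, and which mouse it left out is not given in the sources used here. All deposited mice were used, and values that turn on a single mouse are given without it. No allele or agent other than the diet set the groups apart. Each of the 16 libraries held poly(A) RNA of the whole thyroid of 1 mouse, so that endothelial cells, mural cells, thyrocytes and any tissue left on the gland contributed to every value. In such bulk samples, fewer cells of a type and less RNA per cell cannot be told apart.

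VEGF-A binds the receptor tyrosine kinases VEGFR2 (encoded by Kdr), the main signalling receptor of blood vessel endothelium, and VEGFR1 (encoded by Flt1), which binds it tightly but signals weakly and is also made as a soluble decoy. Angiopoietin 1, made mostly by perivascular cells, activates the endothelial receptor TIE2 (encoded by Tek) and keeps vessels quiescent, whereas angiopoietin 2, made by endothelial cells, is a weaker, context-dependent ligand that can displace it, and TIE1 is the partner receptor that modulates TIE2. The thyroid is one of the most densely vascularized endocrine glands, with a fenestrated capillary network around each follicle, and thyrocytes themselves are a known source of VEGF-A.

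Totals ran from 30025256 to 48508653 counts per library. At 6 weeks, 28 skeletal muscle markers took 3.81% to 16.2% of the counts in the CD mice M43, M45 and M48, against 0.112% to 0.454% in the CD mouse M22 and the 4 HF+SD mice, and 0.0129% to 0.0257% in the libraries of 3 weeks. Of the 27 muscle markers tested at 6 weeks, 26 were lower on the HF+SD. Values of the 10 genes at 6 weeks are therefore also given without M45 and M48 or with a covariate for muscle (the muscle score). The counts of the gene lists are given the same way, which was chosen after seeing the data. At 3 weeks the muscle score ran from -1.70 to 0.83, with up to 6 of the 28 markers at 0 counts in a library. What it takes up there cannot be equated with muscle RNA. M22 in turn held more parathyroid RNA than the others, with 3 parathyroid markers at 1.71% of its counts against 0.0507% to 0.451% in the other libraries of 6 weeks. The 9 thyrocyte markers were all detected, with summed levels of 1749.9 to 2904 CPM (counts scaled to a common library size) in CD mice and 3790.0 to 4308 CPM in HF+SD mice at 6 weeks, and of 3226 to 3977 CPM and 4063 to 4705 CPM at 3 weeks. These summed levels did not overlap between diets, with 4 of the 9 passing as higher at 6 weeks and 3 at 3 weeks. With the muscle score 2 passed as higher at 6 weeks and 3 at 3 weeks, and without M45 and M48 3 did at 6 weeks. The 14 pan-endothelial markers, which mark endothelial cells of all vessels, had summed levels of 312 to 424 CPM in CD mice and 1132 to 1362 CPM in HF+SD mice at 6 weeks, and of 510.0 to 645 CPM and 939 to 1467 CPM at 3 weeks. Of these 14, 13 were higher with overnutrition at 6 weeks and 10 at 3 weeks, and none was lower. Erythrocyte markers summed to 206 to 484 CPM in CD mice and 472 to 653 CPM in HF+SD mice at 6 weeks, where 3 of 5 were higher in all libraries and 0 of 5 with the muscle score or without M45 and M48. Brown adipocyte markers went the other way, with 273 to 587 CPM against 12.3 to 77.4 CPM at 6 weeks (3 of 3 tested markers lower) and 112 to 251 CPM against 13.0 to 71.6 CPM at 3 weeks (4 of 4 lower). With the muscle score 3 were lower at each time, and without M45 and M48 4 of 4 tested were lower at 6 weeks. White adipocyte markers had 542 to 1110 CPM against 253 to 430 CPM at 6 weeks (5 of 6 lower). At 3 weeks they had 562 to 715 CPM against 217 to 466 CPM (3 of 6 lower). The muscle score left 0 and 2 of these lower, and 3 were lower at 6 weeks without M45 and M48. Of 4 C cell markers 3 were lower at 6 weeks, and 2 lower and 1 higher at 3 weeks. For these, 2 were lower at each time with the muscle score, and 2 at 6 weeks without M45 and M48. The part of these other tissues in the results on the 10 genes was tested only through the covariates and scalings named beside each value.

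Because the 4 receptors moved together with diet, the RefSeq promoter windows of their genes are shown, each 300 bases long from 250 bases before the annotated start into the first 50 bases after it, in GRCm38.p6 coordinates and read 5′ to 3′ along the gene. Capitals mark GGAAGT and AGGAAG, on either strand. These are 2 longer forms of the core GGAA bound by ETS factors, a family used by many endothelial genes. The pair overlap where AGGAAGT occurs. The core GGAA alone was not marked, and it occurs elsewhere in these windows, that of Tek included.
Kdr (chr5:75978406-75978705, minus strand): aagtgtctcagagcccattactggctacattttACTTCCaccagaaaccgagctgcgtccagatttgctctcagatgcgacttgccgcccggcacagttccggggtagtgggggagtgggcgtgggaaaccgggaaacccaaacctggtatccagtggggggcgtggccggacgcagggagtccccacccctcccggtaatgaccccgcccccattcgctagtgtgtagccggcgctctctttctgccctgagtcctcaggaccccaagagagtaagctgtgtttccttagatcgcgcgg
Flt1 (chr5:147725962-147726261, minus strand): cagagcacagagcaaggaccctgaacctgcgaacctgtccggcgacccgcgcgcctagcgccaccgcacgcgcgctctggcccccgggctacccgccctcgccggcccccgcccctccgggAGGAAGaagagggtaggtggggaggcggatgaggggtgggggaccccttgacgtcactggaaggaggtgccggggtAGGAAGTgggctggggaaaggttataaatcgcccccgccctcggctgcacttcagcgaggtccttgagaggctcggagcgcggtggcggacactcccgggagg
Tek (chr4:94739039-94739338, plus strand): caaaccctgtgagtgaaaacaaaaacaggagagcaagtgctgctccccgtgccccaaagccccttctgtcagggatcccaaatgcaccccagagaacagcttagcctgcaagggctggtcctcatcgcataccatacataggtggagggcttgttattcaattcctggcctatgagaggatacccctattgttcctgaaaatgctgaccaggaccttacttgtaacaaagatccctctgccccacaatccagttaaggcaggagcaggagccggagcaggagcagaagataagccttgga
Tie1 (chr4:118489800-118490099, minus strand): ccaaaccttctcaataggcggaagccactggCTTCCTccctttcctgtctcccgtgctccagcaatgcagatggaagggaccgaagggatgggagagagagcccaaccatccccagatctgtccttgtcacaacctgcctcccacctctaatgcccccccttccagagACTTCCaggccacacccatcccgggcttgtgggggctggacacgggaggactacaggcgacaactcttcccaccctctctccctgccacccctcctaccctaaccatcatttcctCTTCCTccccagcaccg
Flt1 had AGGAAG at base 122 of its window and AGGAAGT at base 198. Tie1 held AGGAAG on the opposite strand at bases 32 and 284 and GGAAGT on that strand at base 169, Kdr held GGAAGT on the opposite strand at base 34, and Tek held neither. GGAAGT or AGGAAG was found in 45.8% of the 32851 mouse promoter windows of that table, so that 3 of 4 receptor genes is a description of these windows and of nothing bound to them. Of the other short motifs searched on both strands, the hypoxia response core GCGTG occurred at 2 places in the Kdr window and 1 in that of Flt1 (32.4% of all windows). ACGTG occurred in none of the 4 (19.6% of all), TGACG at 2 overlapping places in Flt1 (20.8%) and ACAAT at 2 places in Tek (31.02%). Of the 2 annotated Vegfa windows, both on the minus strand, the upstream window (chr17:46032328-46032627) held none of these motifs. The other (chr17:46025114-46025413), at a start further along the gene, held both hypoxia response cores, TGACG and GGAAGT, each at 1 place. The hypoxia response cores and TGACG, starting at bases 33, 40 and 42 of that window, lie in a stretch that reads as VEGF-A coding sequence. They describe that stretch and are not taken as promoter motifs. Which of the 2 annotated Vegfa starts is used in the thyroid was not tested.

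With overnutrition 6 of the 10 genes were higher at 6 weeks and the same 6 at 3 weeks, namely Vegfa, Kdr, Flt1, Angpt2, Tek and Tie1, and none was lower (edgeR's quasi-likelihood test, Benjamini-Hochberg adjusted p under 0.05 over all genes). In all 6, at both times, the lowest HF+SD value exceeded the highest CD value. Among all tested genes, 13.9% at 6 weeks and 13.1% at 3 weeks were likewise above without overlap. The backgrounds for the counts that passed the test were 12.0% of 18249 tested genes higher and 9.55% lower at 6 weeks, and 9.07% of 17238 higher and 5.78% lower at 3 weeks. The median log2 fold change of the 10 genes was 1.03 at 6 weeks and 0.59 at 3 weeks, beside -0.01 over all tested genes at each time. The largest difference among the 10 was that of Angpt2, at both times. Vegfb, Vegfc, Pgf and Angpt1 passed the test at neither time, though Vegfb at 6 weeks was lower at an unadjusted p of 0.0238 in edgeR and passed in DESeq2.

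**Figure D1:**
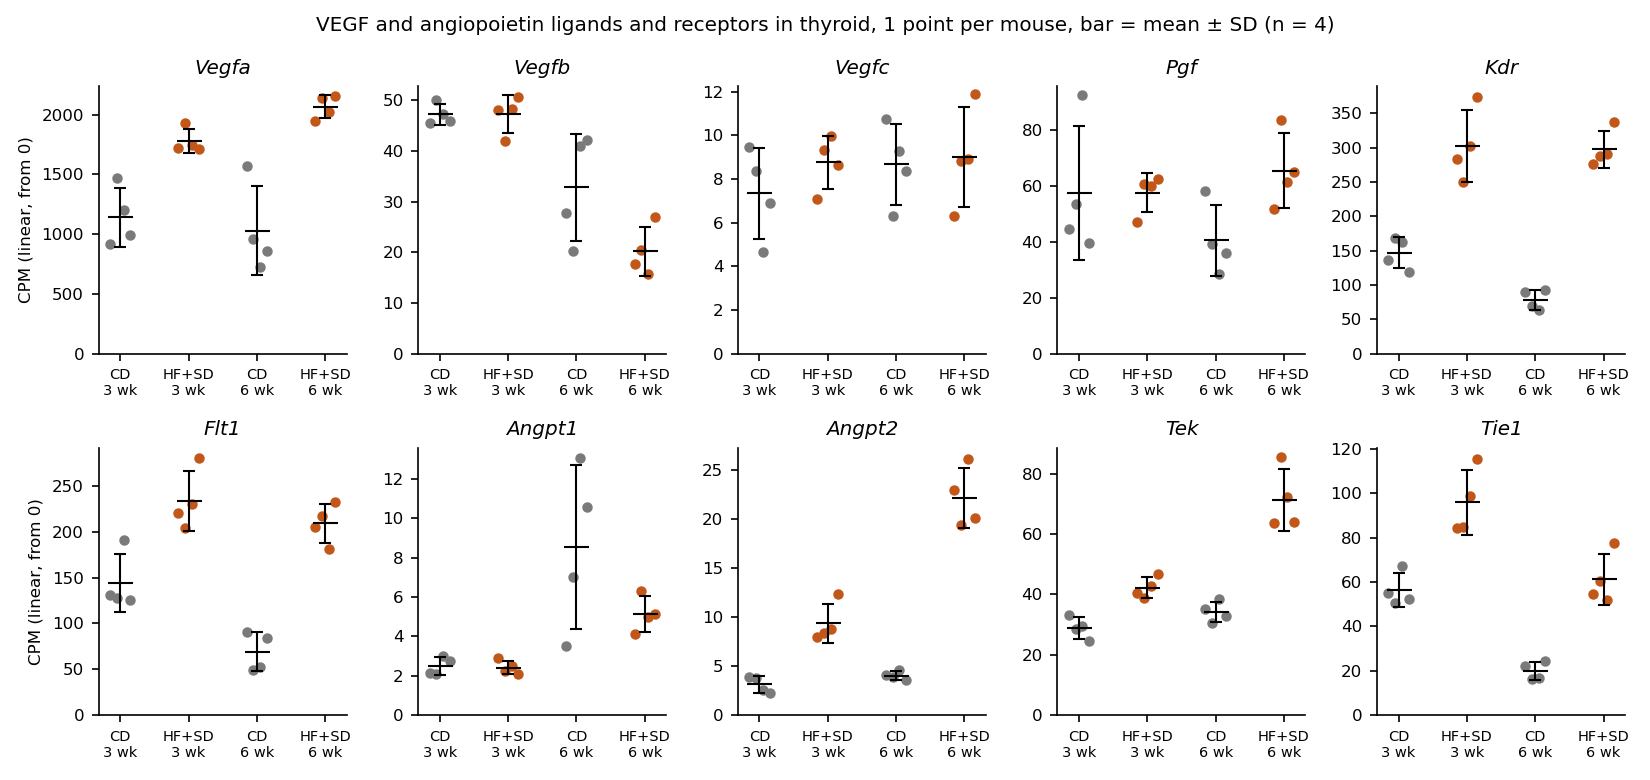
Levels of the 10 genes in CPM (y axis, linear and starting at 0, with a scale of its own for each gene) in the 4 groups of mice (x axis), with 1 point per mouse and the mean ± SD of 4 mice as black bars. In Vegfa, Kdr, Flt1, Angpt2, Tek and Tie1 the orange HF+SD points lie above the grey CD points of the same time point without overlap, and in Vegfb, Vegfc, Pgf and Angpt1 they overlap.

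Vegfa, the principal growth factor for blood vessels, is described first. At 6 weeks it had 1568, 960.5, 726 and 863 CPM in the CD group (mice M22, M43, M45 and M48), and 1951, 2139.8, 2020.0 and 2156 CPM in the HF+SD mice M5, M18, M34 and M35 (in every list of 6-week values below, mice come in this order). M22, the CD mouse with little muscle RNA, had the highest CD value and lay nearest to the HF+SD mice, which were close to each other. The mean rose from 1029 ± 372 CPM (SD, n = 4) to 2067 ± 98.2 CPM (SD, n = 4), a log2 fold change of 1.01 (standard error, SE, 0.25, edgeR adjusted p = 0.0211). This call was the least stable of the 6. It was lost when M48 (adjusted p = 0.0609), M18 (0.0609), M34 (0.0570) or M35 (0.0559) was left out in edgeR, and without M45 and M48 the log2 fold change was 0.72 (edgeR adjusted p = 0.0639). With M22 as the lone CD mouse, which leaves no spread among CD mice to test with, it was 0.39.

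After 3 weeks Vegfa had 914, 1467, 1198 and 993 CPM in the CD mice M53, M54, M55 and M96, and 1724, 1932, 1749.5 and 1712 CPM in the HF+SD mice M7, M19y, M20y and M31 (the order of all 3-week values below). Muscle markers were scarce in all 8 of these libraries, and the diets were again apart. The log2 fold change was 0.64 (SE 0.14, edgeR adjusted p = 0.0158), and without M19y the adjusted p was 0.0501 in edgeR.

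Vegfb, a VEGFR1 ligand most abundant in oxidative muscle and fat, had 27.8, 20.3, 41.0 and 42.1 CPM in the CD mice at 6 weeks and 17.8, 20.4, 15.7 and 26.9 CPM in the HF+SD mice. The highest values were those of M45 and M48, the libraries with the largest muscle share, and the diets overlapped. Its log2 fold change was -0.70 (SE 0.26, edgeR adjusted p = 0.0834). It was -0.41 with a muscle score added as a covariate (edgeR adjusted p = 0.430), and -0.24 without M45 and M48 (edgeR adjusted p = 0.583). It passed the test at -0.91 without M43 (edgeR adjusted p = 0.0279), at -0.73 in DESeq2 (adjusted p = 0.0454) and at -0.76 in 1 edgeR fit of all 16 libraries (adjusted p = 0.0137). At 3 weeks Vegfb was nearly the same in all mice, with 45.6 to 50.2 CPM on the CD and 42.0 to 50.8 CPM on the HF+SD. This gave a log2 fold change of 0.00 with a 95% interval from -0.17 to 0.17, the narrowest of the 10.

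Vegfc, the ligand of VEGFR3 that drives lymphatic growth, overlapped between diets at both times. It had 10.7, 6.32, 9.28 and 8.35 CPM against 6.30, 8.84, 8.92 and 11.9 CPM at 6 weeks (CD against HF+SD), and 4.65 to 9.45 CPM against 7.10 to 9.97 CPM at 3 weeks. The log2 fold change was 0.05 (95% interval -0.47 to 0.58, edgeR adjusted p = 0.894) at 6 weeks and 0.25 (-0.21 to 0.72, edgeR adjusted p = 0.442) at 3 weeks.

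Pgf encodes placental growth factor, which binds VEGFR1 but not VEGFR2. Its values were 58.3, 39.3, 28.5 and 36.2 CPM with the CD and 51.6, 83.8, 61.5 and 65.2 CPM with the HF+SD at 6 weeks. Only M22 among the CD mice reached into the HF+SD range. The log2 fold change of 0.69 (SE 0.23) did not pass the test (edgeR adjusted p = 0.0611), but did when M22 was left out (0.92, edgeR adjusted p = 0.00690), and in DESeq2 with all 8 mice (0.68, adjusted p = 0.0301). At 3 weeks Pgf had 44.5, 53.4, 92.6 and 39.7 CPM on the CD and 47.3, 60.6, 60.0 and 62.5 CPM on the HF+SD. Means were 57.5 ± 24.1 CPM and 57.6 ± 6.98 CPM (SD, n = 4 each), with M55 alone above all HF+SD mice, and without M55 the log2 fold change went from 0.00 to 0.33.

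Among the receptors, Kdr had 89.3, 68.6, 64.0 and 93.0 CPM in the CD mice at 6 weeks and 276, 288, 290.2 and 337 CPM in the HF+SD mice. The lowest HF+SD mouse lay well above the highest CD mouse, and M22 was within the range of the other CD mice. Its log2 fold change was 1.92 (SE 0.17, edgeR adjusted p = 0.000216), a 3.78-fold higher level. At 3 weeks Kdr had 137, 168, 162 and 119.5 CPM on the CD and 284, 249.9, 302 and 374 CPM on the HF+SD. The highest value was that of M31, and the log2 fold change was 1.05 (SE 0.14, edgeR adjusted p = 0.00175).

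Flt1 had 90.8, 49.7, 52.3 and 84.2 CPM with the CD at 6 weeks and 205, 217, 182 and 232 CPM with the HF+SD. Its log2 fold change was 1.59 (SE 0.22, edgeR adjusted p = 0.00171). At 3 weeks the values were 130.5, 128, 191 and 126 CPM on the CD and 220.0, 205, 230.4 and 280.4 CPM on the HF+SD. M55 stood above the other 3 CD mice, close to the lowest HF+SD mouse, and the log2 fold change was 0.70 (SE 0.15, edgeR adjusted p = 0.0152). Gene counts do not separate the membrane form of VEGFR1 from its soluble form.

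**Figure D2:**
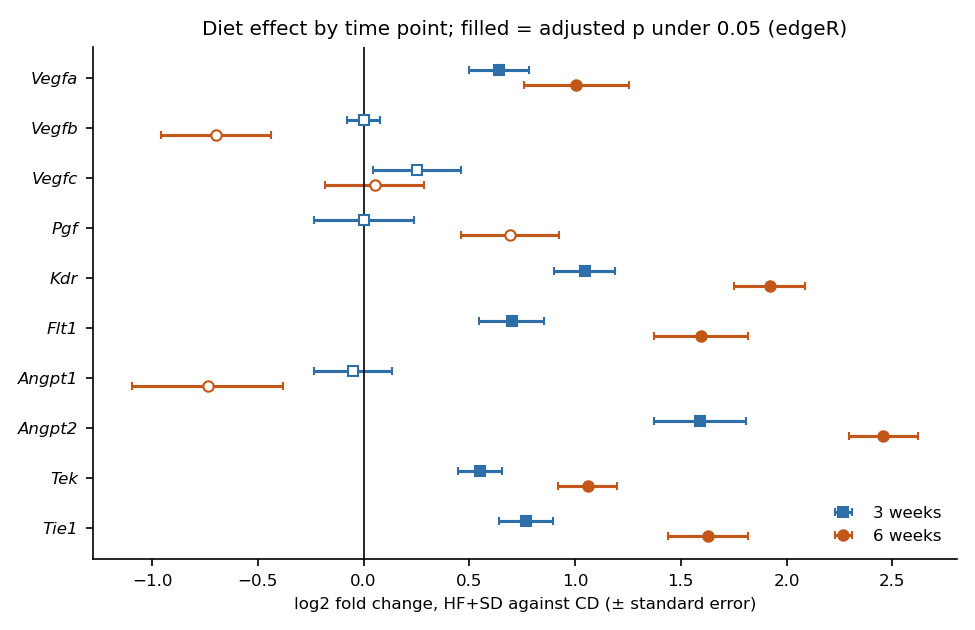
Log2 fold change of each gene on the HF+SD against the CD (x axis, with the standard error as a bar) at 3 weeks (blue squares) and 6 weeks (orange circles), from edgeR with 4 mice per diet, filled where the adjusted p was under 0.05. The 6 genes with filled symbols all lie to the right of 0 at both times, from 0.55 for Tek at 3 weeks to 2.46 for Angpt2 at 6 weeks.

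Angpt1 had 3.53, 7.03, 13.0 and 10.6 CPM on the CD at 6 weeks and 4.11, 6.30, 4.97 and 5.13 CPM with the HF+SD. The CD values followed the order of the muscle share, lowest in M22 and highest in M45, and M22 was below all HF+SD mice. This was a log2 fold change of -0.74 (SE 0.36, edgeR adjusted p = 0.169). It passed the test without M22 (-0.99, edgeR adjusted p = 0.0140). It turned to 0.23 with that covariate for muscle (edgeR adjusted p = 0.676) and to 0.53 with M22 as the lone CD mouse. At 3 weeks Angpt1 had 2.15, 2.09, 2.98 and 2.74 CPM on the CD and 2.88, 2.23, 2.48 and 2.07 CPM on the HF+SD, which overlapped (log2 fold change -0.05, 95% interval -0.46 to 0.36, edgeR adjusted p = 0.883). Markers of pericytes and smooth muscle, the mural cells known to make angiopoietin 1, were higher on the HF+SD for 8 of 12 genes at 6 weeks (summed levels, CD against HF+SD, of 507 to 839 CPM against 1213 to 1334 CPM) and in 4 of 12 at 3 weeks (444 to 517 CPM against 534 to 814 CPM). With the muscle score, which had little muscle RNA to measure at 3 weeks, these counts were 7 and 0, and without M45 and M48 the count at 6 weeks was 7. An annotated antisense RNA, Gm17473, overlaps exons of Angpt1, and without strand in the counting its reads cannot be told apart from those of Angpt1.

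Angpt2 had 4.04, 3.90, 4.64 and 3.55 CPM in the CD mice at 6 weeks and 23.0, 19.4, 26.1 and 20.2 CPM in the HF+SD mice. The CD mice lay close together, M22 among them, and all HF+SD mice were far above them. The mean rose from 4.03 ± 0.455 CPM (SD, n = 4) to 22.2 ± 3.07 CPM (SD, n = 4), a log2 fold change of 2.46 (SE 0.16, edgeR adjusted p = 0.000103) or 5.49-fold, which ranked 12 of 18249 genes by p. At 3 weeks Angpt2 had 3.91, 3.75, 2.52 and 2.29 CPM on the CD and 7.96, 8.42, 8.81 and 12.3 CPM on the HF+SD. M31 was again the highest, and the log2 fold change was 1.59 (SE 0.22, edgeR adjusted p = 0.00164) or 3.01-fold.

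The ratio of Angpt2 to Angpt1 within a library, which no scaling of the library can change, was 1.15, 0.555, 0.356 and 0.335 in the CD mice at 6 weeks and 5.60, 3.07, 5.26 and 3.93 in the HF+SD mice. Angpt1 counts exceeded Angpt2 counts in 3 of 4 CD mice and in none of the HF+SD mice. On the log2 scale with a prior count of 2 the means were -0.92 ± 0.81 and 2.11 ± 0.40 (SD, n = 4 each), a difference of 3.03 (exact two-sided permutation test, p = 0.0286, the smallest that 4 mice against 4 allow, and 0.0286 after adjustment over the 2 time points). At 3 weeks the ratio was 1.82, 1.80, 0.845 and 0.836 on the CD and 2.77, 3.78, 3.55 and 5.96 on the HF+SD. The diets did not overlap here either, and the difference of the log2 means was 1.63 (exact two-sided permutation test, p = 0.0286, adjusted 0.0286). These are ratios of counts, and Angpt1 has the longer annotated exons (5205 against 3690 bases). At 6 weeks the muscle share moved with the Angpt1 values of the CD mice, and M22, with little muscle RNA, had a ratio of 1.15, below every HF+SD mouse.

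**Figure D3:**
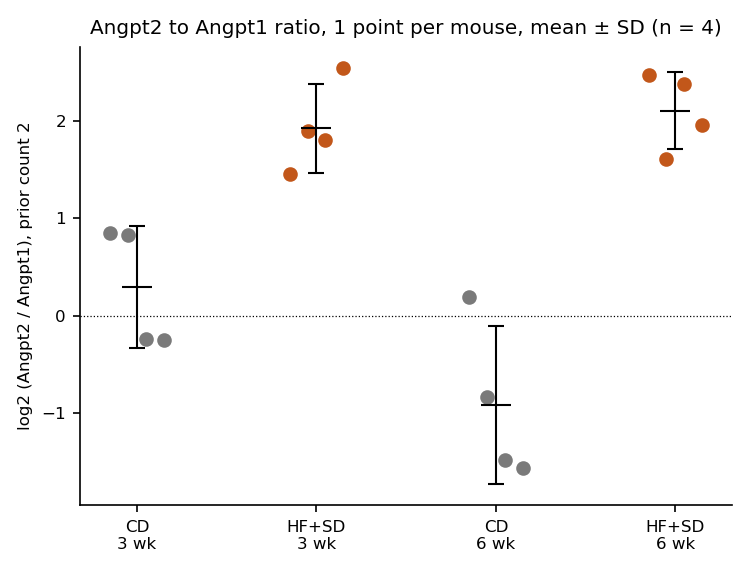
Log2 ratio of Angpt2 to Angpt1 (y axis, log2 CPM of Angpt2 minus that of Angpt1 with a prior count of 2) in the 4 groups (x axis), with 1 point per mouse and the mean ± SD of 4 mice. All 8 HF+SD mice lie above 1 and all 8 CD mice below 1, with the dotted line at a ratio of 1 on the linear scale.

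Tek had 35.3, 30.6, 38.4 and 32.8 CPM with the CD at 6 weeks and 63.5, 85.6, 72.4 and 64.1 CPM with the HF+SD. Its log2 fold change was 1.06 (SE 0.14, edgeR adjusted p = 0.00125). At 3 weeks it had 33.1, 28.6, 29.4 and 24.4 CPM against 40.4, 38.9, 42.7 and 46.9 CPM, with a log2 fold change of 0.55 (SE 0.10, edgeR adjusted p = 0.00763), the smallest of the 6. Tie1 had 22.1, 16.2, 16.6 and 24.3 CPM against 54.8, 60.5, 51.8 and 77.6 CPM at 6 weeks, a log2 fold change of 1.63 (SE 0.19, edgeR adjusted p = 0.000719). At 3 weeks its values were 55.2, 50.4, 67.4 and 52.3 CPM against 84.3, 85.0, 98.7 and 116 CPM, a log2 fold change of 0.77 (SE 0.13, edgeR adjusted p = 0.00426). For both receptors all HF+SD mice were above all CD mice of the same time.

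Kdr, Flt1, Angpt2, Tek and Tie1 passed the test at 6 weeks in all libraries and without M45 and M48. Without M45 and M48, where 6.61% of all genes were higher and 3.76% lower, their log2 fold changes were 1.93, 1.58, 2.49, 1.13 and 1.69. Against M22 alone, which leaves no spread among CD mice to test with, they were 1.73, 1.20, 2.45, 1.01 and 1.47. The same 6 genes passed at both times with the muscle covariate (in that fit 6.83% of all genes were higher and 4.15% lower at 6 weeks, and 5.84% and 3.17% at 3 weeks). With it the log2 fold change of Vegfa was 0.58 at 6 weeks (edgeR adjusted p = 0.0306) and 0.89 at 3 weeks (edgeR adjusted p = 0.00597), and that of Pgf at 6 weeks was 0.27 (edgeR adjusted p = 0.425). With the brown adipocyte score as a covariate, an alternative chosen after seeing the data, 0 of the 10 passed at either time in edgeR (7 of 10 at an unadjusted p under 0.05 at 6 weeks and 0 of 10 at 3 weeks), in a fit where 12 of 18249 genes passed in all at 6 weeks and 2 of 17238 at 3 weeks, and in which the score itself did not overlap between diets. In that fit the log2 fold changes at 6 weeks were 1.70 for Vegfa, 2.17 for Kdr, 2.02 for Flt1, 1.87 for Angpt2, 1.18 for Tek and 2.09 for Tie1, with standard errors of 0.35 to 0.64. At 3 weeks they were 0.76, 0.52, 0.01, 0.98, 0.21 and 0.21 in the same order.

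Compared per kilobase of annotated exon, Vegfa stood far above all other members in every group, with mean levels in CD and HF+SD mice of 240 and 482 CPM per kilobase at 6 weeks and of 267 and 415 at 3 weeks. On the HF+SD at 6 weeks it was followed by Kdr (33.0 CPM per kilobase), Pgf (22.6), Flt1 (15.5), Tek (15.2), Vegfb (12.6), Tie1 (12.4), Angpt2 (6.01), Vegfc (3.67) and Angpt1 (0.985). Neighbours from Flt1 to Tie1 in this order overlapped over the 4 mice, and the other neighbours did not. On the CD at 6 weeks Vegfb came next after Vegfa (20.4), Kdr was at 8.72 and Angpt2 was last at 1.09. There each neighbour from Vegfb down to Vegfc overlapped with the next, as did Angpt1 and Angpt2. At 3 weeks Kdr was at 16.2 CPM per kilobase with the CD and 33.5 with the HF+SD, Angpt2 at 0.845 and 2.54, and Angpt1 was last on both diets at 0.479 and 0.464. Levels were not tested between time points, because the library project changed with them.

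With no covariate each log2 fold change of the 6 genes was greater at 6 weeks than at 3 weeks, but the difference between time points did not pass the test for any of the 10 genes (edgeR interaction term over 16 libraries, 0 of 10 at an adjusted p under 0.05 and 6 of 10 at an unadjusted p under 0.05, beside 0.0792% and 22.3% of 18929 genes). The differences of the log2 fold changes were 0.82 for Kdr (SE 0.23, edgeR adjusted p = 0.0696), 0.81 for Tie1 (SE 0.25, edgeR adjusted p = 0.0828), 0.81 for Angpt2 (SE 0.27, edgeR adjusted p = 0.101) and 0.83 for Flt1 (SE 0.29, edgeR adjusted p = 0.111). For Tek the difference was 0.45 (edgeR adjusted p = 0.141) and for Vegfa 0.31 (edgeR adjusted p = 0.555). Leaving out M22, 4 genes passed (Kdr, Flt1, Tie1 and, lower, Angpt1), and leaving out M43, 1 gene passed (Vegfb, lower). The share of all genes that passed in these fits was not recorded, so these counts have no background. Leaving out M22 also raised the calls over all genes in the test of diet at 6 weeks, from 3927 of 18249 to 5743 of 18645. With the muscle covariate none of the 10 passed in edgeR (adjusted p from 0.437 to 0.939), and the difference was 0.64 for Kdr, 0.55 for Flt1 and 0.73 for Tie1, while it turned to -0.29 for Vegfa, to -0.09 for Pgf and to 0.42 for Angpt1.

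The members were next set against the 14 pan-endothelial markers, none of which is a member, by scaling each library to the geometric mean of these markers. This asks whether a gene moved more or less than the mean of these markers. The 14 did not move alike. Unscaled, they ran from 0.27 to 2.44 at 6 weeks (median 1.67) and from -0.08 to 1.65 at 3 weeks (median 0.81). Their mean is thus not a level that all 14 share. The scaling moved the median of all genes to -1.64 at 6 weeks and -0.79 at 3 weeks, and values below are on that scale. Angpt2 was the only member that was higher than the markers (background 1.23% of genes at 6 weeks and 1.85% at 3 weeks), with a log2 fold change of 0.84 (SE 0.25, edgeR adjusted p = 0.00835) at 6 weeks and 0.78 (SE 0.25, edgeR adjusted p = 0.00627) at 3 weeks. Its level per geometric mean of the markers was 0.226, 0.301, 0.319 and 0.190 in the CD mice at 6 weeks and 0.537, 0.392, 0.577 and 0.341 in the HF+SD mice. At 3 weeks it was 0.144, 0.155, 0.0883 and 0.0947 against 0.196, 0.227, 0.189 and 0.211. The diets did not overlap at either time. Angpt2 was not alone in this, since the marker Eng was at 0.85 and 0.84 on the same scale.

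The ratios of Flt1 and Tie1 to the endothelial markers differed between diets by less than the spread of the mice. For Flt1 the ratio was 4.25 ± 0.669 in CD and 4.28 ± 0.396 in HF+SD mice at 6 weeks, a log2 fold change of 0.01 (95% interval -0.43 to 0.45). For Tie1 it was 1.23 ± 0.0689 and 1.24 ± 0.0734 (SD, n = 4 each), with a log2 fold change of 0.01 (-0.33 to 0.36). At 3 weeks the values were -0.09 (-0.47 to 0.30) for Flt1 and -0.03 (-0.40 to 0.35) for Tie1. Kdr had 0.31 (-0.11 to 0.73, edgeR adjusted p = 0.136) at 6 weeks and 0.24 (-0.15 to 0.62, edgeR adjusted p = 0.249) at 3 weeks.

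Tek was lower relative to the endothelial markers at 6 weeks (-0.56, SE 0.21, edgeR adjusted p = 0.0252), and had -0.24 at 3 weeks (edgeR adjusted p = 0.261). Vegfb, Vegfc, Pgf and Angpt1 were also lower at 6 weeks, so that 5 of 10 members passed in that direction, as did 90.3% of all genes. At 3 weeks Vegfb, Pgf and Angpt1 were lower, 3 of 10, beside 71.9% of all genes. Vegfa had -0.60 (edgeR adjusted p = 0.0885) and -0.13 (edgeR adjusted p = 0.553). Scaled instead to the 9 thyrocyte markers, which moved the median of all genes to -0.99 and -0.63, Vegfa was at 0.10 (edgeR adjusted p = 0.744) at 6 weeks and 0.04 (edgeR adjusted p = 0.835) at 3 weeks. These 9 markers did not move alike. Unscaled, they ran from -0.41 to 4.26 at 6 weeks (median 0.48) and from -0.19 to 3.00 at 3 weeks (median 0.28), with 2 of 9 negative each time. Their mean is thus not a level that all 9 share. On that scale Angpt2 (1.47 and 0.99) and Kdr (0.94 and 0.44) were higher at both times, Flt1 (0.65) and Tie1 (0.65) at 6 weeks, and Tek was at 0.07 and -0.07 without passing. These were 4 and 2 of 10 members, beside 2.80% and 2.58% of all genes. In the other direction 3 of 10 were lower at 6 weeks, namely Vegfb (-1.73), Vegfc (-0.93) and Angpt1 (-1.82), beside 72.3% of all genes, and 3 at 3 weeks, namely Vegfb (-0.61), Pgf (-0.65) and Angpt1 (-0.67), beside 63.6%.

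**Figure D4:**
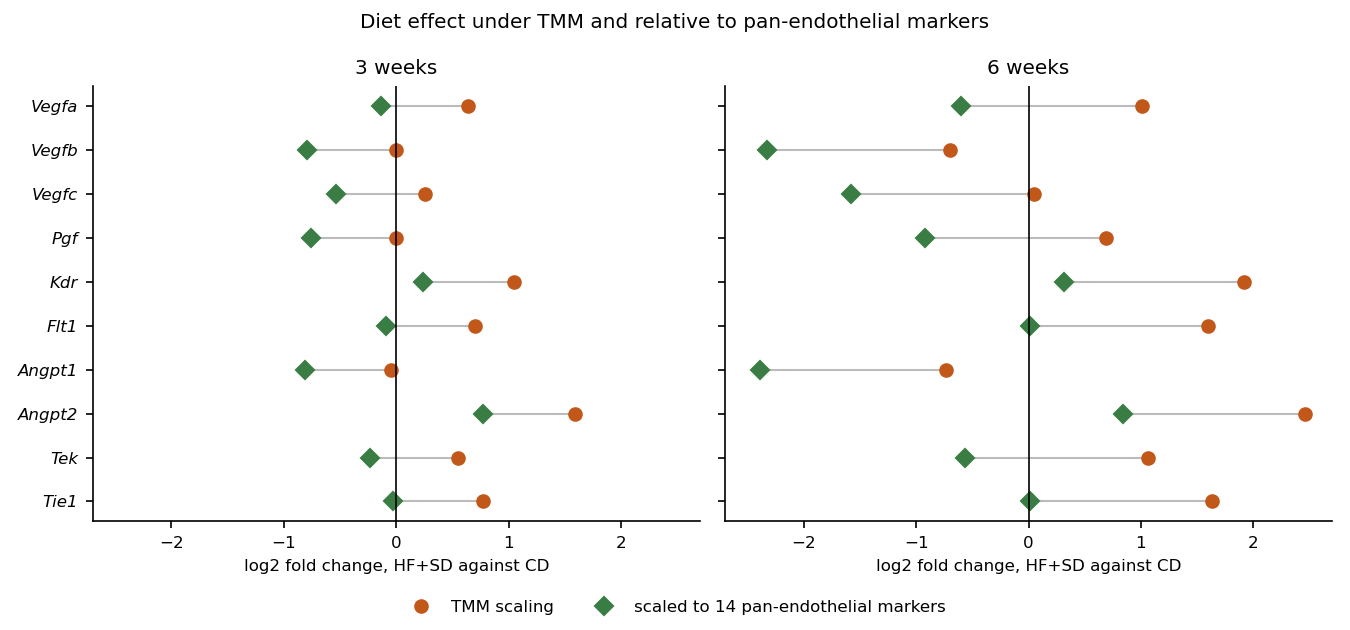
Log2 fold change on the HF+SD against the CD (x axis) at 3 weeks (left) and 6 weeks (right) for each gene, with TMM scaling of the libraries (orange circles) and with scaling to 14 pan-endothelial markers (green diamonds), 4 mice per diet. With the second scaling Flt1 and Tie1 lie near 0, Angpt2 stays to the right of 0 (0.84 and 0.78), and the ligands Vegfb, Vegfc and Pgf and the angiopoietin Angpt1 lie to the left.

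Of 8 further ligands, receptors and partners of these systems, 7 were tested, 5 were higher at 6 weeks and 4 were higher and 1 lower at 3 weeks, with median log2 fold changes of 1.08 and 0.48. Flt4, which encodes the VEGF-C receptor VEGFR3, had 1.52 (edgeR adjusted p = 0.000626) and 0.57 (adjusted p = 0.0435). Nrp1, a co-receptor for VEGF-A, had 0.95 (edgeR adjusted p = 0.000720) and 0.34 (adjusted p = 0.0326). Ptprb encodes VE-PTP, the phosphatase that dephosphorylates TIE2, and had 1.17 (edgeR adjusted p = 0.00174) and 0.48 (adjusted p = 0.0143). Svep1, whose matrix protein binds TIE1, had 1.18 (edgeR adjusted p = 0.00194) and 0.71 (adjusted p = 0.00727). Plxnd1, an endothelial semaphorin receptor, had 1.08 (edgeR adjusted p = 0.0108) and 0.67 (adjusted p = 0.0508). Nrp2, the co-receptor linked to VEGF-C and lymphatic vessels, differed in that it had 0.26 at 6 weeks (edgeR adjusted p = 0.225) and was lower at 3 weeks (-0.45, edgeR adjusted p = 0.0405). Vegfd, the other VEGFR3 ligand, did not pass (-0.39 and 0.17), and Angpt4 was too low to test within a time point. The 5 higher at 6 weeks passed without M45 and M48 as well, whereas with the muscle score 5 were higher at 6 weeks and, at 3 weeks, 0 were higher and 1 lower in edgeR.

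Of 14 tip cell and Notch genes, which mark sprouting endothelium and the signalling that restrains it, 13 were higher at 6 weeks and 7 at 3 weeks, and none was lower (medians 1.39 and 0.70). At 6 weeks the largest differences were those of the Notch target Hey1 (2.07), of Nrarp, a feedback inhibitor of Notch (1.98), and of the endothelial receptor Notch4 (1.92). At 3 weeks they were those of Nrarp (1.72), Apln, a peptide made by tip cells (1.43), and Notch1 (1.24). Esm1, a tip cell product that responds to VEGF, passed with the smallest difference at 6 weeks (0.55, edgeR adjusted p = 0.0449) and had -0.07 at 3 weeks. Hey2 did not pass at either time (0.20 and -0.58). Without M45 and M48, 8 of 14 were higher at 6 weeks, and with the muscle score 9 at 6 weeks and 5 at 3 weeks. Scaled to the 14 pan-endothelial markers, the medians of this list were -0.23 and -0.11, beside -1.64 and -0.79 over all genes. At the median these genes thus rose no more than those markers.

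Among 6 genes linked to endothelial quiescence and flow, Thbd, the thrombin receptor thrombomodulin, and Nos3, endothelial nitric oxide synthase, were higher at 6 weeks (1.39 and 1.27) and at 3 weeks (0.70 and 0.67). Klf4, a flow-induced transcription factor, and Timp3, an inhibitor of matrix proteases that also blocks binding of VEGF to VEGFR2, were lower at 3 weeks (-0.77 and -0.97) and had 0.33 and 0.02 at 6 weeks. Foxo1 and Klf2 passed at neither time. With the muscle score 2 of 6 were higher at 6 weeks, and at 3 weeks 0 were higher and 2 lower in edgeR. Without M45 and M48, 2 of 6 were higher at 6 weeks.

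Targets of the hypoxia-inducible factors, of which Vegfa is a known one, showed no common direction. Of 13 tested genes besides Vegfa, 3 were higher at 6 weeks, namely Ddit4 (1.62), Ero1l (1.07) and Ndrg1 (0.70), and 3 were lower, namely Ankrd37 (-1.01), Egln1 (-0.98) and Bnip3 (-0.95), with a median of 0.01. Of these 6 calls only that of Ddit4 held with the muscle score as a covariate (1.71, edgeR adjusted p = 0.00349), and only that of Ddit4 held without M45 and M48. At 3 weeks their log2 fold changes ran from -0.31 to 0.69 around a median of 0.09, and the lowest adjusted p in edgeR was the 0.0728 of Bnip3.

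The endothelial markers with the largest differences at 6 weeks were Eng, the co-receptor endoglin (2.44), Plvap, a component of the diaphragms of fenestrated capillaries (2.32), and Cdh5, VE-cadherin (1.80). At 3 weeks they were Eng (1.65), Egfl7 (1.19) and Icam2 (1.19). Cldn5, a tight junction protein, was the 1 of 14 that passed at neither time and had 0.27 and -0.08. The 6 lymphatic endothelial markers had log2 fold changes from -0.71 to 0.32 at 6 weeks and from -0.36 to 0.10 at 3 weeks. The 1 that passed was Prox1, the lymphatic master regulator, which was lower at 6 weeks (edgeR adjusted p = 0.0391), though not with the muscle score (-0.67, edgeR adjusted p = 0.159) or without M45 and M48. The pan-endothelial markers were higher in 13 of 14 cases at 6 weeks without M45 and M48 too, and with the muscle score in 12 at 6 weeks and 7 at 3 weeks.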

How the data were processed

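Poly(A) RNA of 16 thyroids was sequenced as read pairs. The submitters' processing notes name Trim Galore 0.6.7, STAR, DESeq2 1.36.0, R 4.1.0 and the build mm39. The authors deposited raw counts per gene, not normalized, and a normalized signal, namely the same counts divided by 1 size factor per library, used here for limma alternatives only. Tests used the deposited counts with edgeR 4.0.16 in R 4.3.3 (TMM factors, filterByExpr, glmQLFit, glmQLFTest, Benjamini-Hochberg over all tested genes), separately at 6 weeks (18249 genes) and 3 weeks (17238 genes), and for the interaction over 16 libraries. CPM is counts scaled to TMM-adjusted library sizes (edgeR's cpm). A standard error is the absolute log2 fold change over the square root of F, and 95% intervals use the test's degrees of freedom. The muscle score is the mean log2 CPM of 28 muscle markers. Identifiers were matched to GENCODE M21 (20841 of 21640 named), which gave exon lengths. Its build differs from mm39, so the only coordinates printed are those of the promoter windows, which came from RefSeq (GRCm38.p6) and cover 8 of the 10 genes, without Angpt1 and Angpt2. Whether counting used strand is not given in the sources used here. Named genes were all 10 members, the 8 further partners, and up to 3 passing genes with the largest differences per list and time point. Any other gene named (Esm1, Hey2, Foxo1, Klf2, Cldn5, Prox1, Ndrg1, Egln1 and Bnip3) was chosen after its values were seen. The members and lists were chosen with earlier results of these data known. The edgeR step was tested on simulated data. Alternatives were DESeq2 1.42.0, other size factors and filters, limma 3.58.1 on log2 of the signal plus 1 or 10, covariates, scalings and each mouse left out. Mice of a group differed beyond counting error and are the replicates.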

Additional observations from a re-analysis of the deposited data

Results flagged for a closer look

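In each of the 40 sets of 4 mice (10 genes in 4 groups), the distance of the highest or lowest mouse to its nearest neighbour was divided by the range of the set, and 2 sets passed Dixon's critical value for 4 values. About 1 in 20 sets does so by chance. Flt1 in the CD mouse M55 at 3 weeks was at 191 CPM while the other 3 CD mice were between 126 and 130 CPM (distance over range 0.930), and without M55 the log2 fold change of Flt1 at 3 weeks was 0.87 in place of 0.70. Pgf in the HF+SD mouse M7 at 3 weeks was at 47.3 CPM, below the other 3 mice at 60.0 to 62.5 CPM (distance over range 0.836). M55 was also the highest CD mouse in Pgf and Tie1 at 3 weeks.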

How the results depend on the processing

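The count of members past the test stayed within 1.5 times of 6 under DESeq2, 4 other size factor or filter settings, limma, 1 fit of all 16 libraries and the muscle score as a covariate. DESeq2 gave 8 at 6 weeks (7 higher, 1 lower, beside 5273 of 21582 genes) and 6 at 3 weeks (beside 3644 of 19010). The fit of all 16 libraries gave 7 (6 higher, 1 lower, beside 6182 of 18929 genes) and 4 (beside 1420 of 18929). In the remaining settings 2005 to 4072 genes passed in all at 6 weeks, and 1553 to 2699 at 3 weeks. The count of members was 0 at both times with the brown adipocyte score as a covariate, which was chosen after seeing the data. There 12 of 18249 genes passed in all at 6 weeks and 2 of 17238 at 3 weeks. Log2 fold changes of the 6 genes were from 1.18 to 2.17 at 6 weeks and from 0.01 to 0.98 at 3 weeks. A minimum absolute log2 fold change of 1 left 2 members at 3 weeks (Kdr and Angpt2), with no share over all genes recorded. With each mouse left out in turn the count ran from 5 to 8 at 6 weeks and from 5 to 6 at 3 weeks. The 8, without M22, were 7 higher and 1 lower. Over all genes the calls ran from 1934 of 18644 to 5743 of 18645 at 6 weeks. At 3 weeks they ran from 1448 of 17515 to 3393 of 17527. The interaction count ran from 0 to 4, with no share over all genes recorded for it. In the fit of all 16 libraries Vegfa (edgeR adjusted p = 0.0705) and Flt1 (edgeR adjusted p = 0.0509) did not pass at 3 weeks. The Angpt2 to Angpt1 log2 difference ran from 2.81 to 3.40 at 6 weeks and from 1.42 to 1.81 at 3 weeks with a mouse left out.

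Scaling to other markers shifts every gene by construction. Scaled to pan-endothelial markers, log2 fold changes turned negative for Vegfa (-0.60), Vegfc (-1.58), Pgf (-0.92) and Tek (-0.56) at 6 weeks, and for Vegfa (-0.13), Vegfb (-0.79), Vegfc (-0.53), Pgf (-0.76), Flt1 (-0.088), Tek (-0.24) and Tie1 (-0.028) at 3 weeks. Scaled to thyrocyte markers, they turned negative for Vegfc (-0.93) and Pgf (-0.23) at 6 weeks and for Vegfb (-0.61), Vegfc (-0.35), Pgf (-0.65) and Tek (-0.069) at 3 weeks.

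All other changes of sign were in genes that had not passed. At 6 weeks these were Vegfc in the fit of all 16 libraries (-0.0071), with the muscle score (-0.12) and with M22 as the lone CD mouse (-0.26), and Angpt1 with the muscle score (0.23) and with M22 as the lone CD mouse (0.53). At 3 weeks Vegfb and Pgf, both at 0.00, were at -0.0087 and -0.0097 in DESeq2, at -0.0076 and -0.0077 with DESeq2's size factors, at -0.0037 and -0.0014 with genes of at least 1 count, at -0.0014 and -0.00094 in the fit of all 16 libraries, and at -0.10 and -0.72 with the brown adipocyte score. Vegfb was at -0.028 in limma with a pseudocount of 1 or 10, and Angpt1 at 0.094 with the brown adipocyte score. Leaving out single mice gave -0.11 to 0.19 for Vegfc at 6 weeks, and at 3 weeks -0.034 to 0.054 for Vegfb, -0.14 to 0.33 for Pgf and -0.14 to 0.048 for Angpt1. The cause of these changes was not tested.

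No paired analysis was possible because the mouse numbers of the groups differ. Counts were lowest in Angpt1, with 74 to 402 per library. Time point and library project cannot be told apart, and nothing separates cell number from RNA per cell.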
